A study of Homo sapiens with 18 samples.

Results

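9 genes that mark epithelial and mesenchymal cell states were followed across all libraries: the cadherins CDH1, CDH2 and CDH3, the filament protein VIM, and the transcription factors SNAI1, SNAI2, ZEB1, ZEB2 and TWIST1. They were taken by exact symbol from the deposited count tables, and all 9 were found among 40916 symbols. RNA came from MCF10A, a non-transformed human mammary epithelial line carrying an H2B-GFP reporter, from HCT116, a human colorectal carcinoma line described as p53-null, and from mixed cultures described as 50% of each line. Each culture was non-irradiated (NIR) or had received 10 Gy (IR), and each of the 6 groups held 3 libraries described as biological replicates. The harvest is given as day 2 in the sample titles and as 72 h after irradiation in the series description. MCF10A was grown in F12:DMEM with horse serum, EGF, hydrocortisone, cholera toxin and insulin, and HCT116 in McCoy's 5A with fetal bovine serum, so line and medium cannot be told apart. For the mixed cultures no medium is given in the labels. No separate clones or parental controls with intact p53 are among the groups.

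Cadherins are calcium-dependent adhesion proteins that join neighbouring cells and bind catenins inside the cell. CDH1 (E-cadherin) is the main cadherin of epithelia, CDH3 (P-cadherin) is typical of basal epithelial layers such as the myoepithelium of the breast, and CDH2 (N-cadherin) is typical of neural and mesenchymal cells. Vimentin is the intermediate filament protein of mesenchymal cells and is also made by many cultured epithelial lines. The SNAI and ZEB proteins are zinc-finger repressors that bind E-box sequences, among them those of the CDH1 promoter, and TWIST1 is a basic helix-loop-helix factor. Their activity is linked to epithelial-mesenchymal transition (EMT), in which epithelial cells lose junctions and gain motility.

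Promoter windows are shown for the 4 genes with a matched sequence. All 4 were lower in HCT116 than in MCF10A, as were SNAI2 and TWIST1, which had no matched sequence. RefSeq sequences (GRCh38.p14, 250 bases before to 50 after the annotated start) were matched for these 4 of the 9 genes, with no entry for CDH1, CDH3, SNAI1, SNAI2 and TWIST1. The windows are CDH2 at chr18:28177081-28177380 on the minus strand, VIM at chr10:17227991-17228290 on the plus strand, ZEB1 at chr10:31318167-31318466 on the plus strand, and ZEB2 at chr2:144520070-144520369 on the minus strand. Each is written 5′ to 3′ on the gene's strand, and capitals mark the E-box CAGGTG, searched on both strands (CACCTG on the other).
CDH2: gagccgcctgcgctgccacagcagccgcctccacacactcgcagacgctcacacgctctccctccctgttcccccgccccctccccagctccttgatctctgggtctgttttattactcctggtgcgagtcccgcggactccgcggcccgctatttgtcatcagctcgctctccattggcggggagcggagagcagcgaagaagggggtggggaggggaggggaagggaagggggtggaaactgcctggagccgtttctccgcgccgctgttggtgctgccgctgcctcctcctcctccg
VIM: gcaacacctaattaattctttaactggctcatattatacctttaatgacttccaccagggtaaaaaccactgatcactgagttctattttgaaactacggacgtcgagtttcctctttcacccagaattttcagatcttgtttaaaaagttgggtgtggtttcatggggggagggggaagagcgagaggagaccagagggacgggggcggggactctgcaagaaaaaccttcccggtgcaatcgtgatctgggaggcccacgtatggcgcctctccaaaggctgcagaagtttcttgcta
ZEB1: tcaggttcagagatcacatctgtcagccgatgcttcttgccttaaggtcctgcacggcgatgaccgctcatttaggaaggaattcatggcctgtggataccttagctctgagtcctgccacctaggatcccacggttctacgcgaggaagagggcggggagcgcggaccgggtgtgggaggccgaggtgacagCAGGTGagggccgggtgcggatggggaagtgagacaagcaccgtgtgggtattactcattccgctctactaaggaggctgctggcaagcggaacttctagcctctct
ZEB2: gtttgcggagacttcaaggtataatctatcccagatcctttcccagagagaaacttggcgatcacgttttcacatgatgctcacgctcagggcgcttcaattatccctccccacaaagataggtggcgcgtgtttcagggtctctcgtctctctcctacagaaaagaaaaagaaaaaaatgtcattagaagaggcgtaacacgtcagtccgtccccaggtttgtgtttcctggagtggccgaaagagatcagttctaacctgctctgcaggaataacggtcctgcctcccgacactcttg
The E-box was found in the ZEB1 window, with its first base at position -57 from the start, and not in the other 3 windows. It was present in 20.6% of the 35116 RefSeq promoter windows of this length. ZEB1 has 7 annotated windows, of which 2 held it. The windows differed in base composition: GC content was 67.0% for CDH2, 58.3% for ZEB1, 49.0% for ZEB2 and 48.0% for VIM, against a median of 58.7% over all windows. CpG counts were 23, 17, 14 and 10 in the same order, against a median of 14.

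Between 25737818 and 40839835 counts were recorded per library. Levels are in CPM (counts scaled to a library total of 1000000) and are given per library or as mean ± SD, n = 3. Mitochondrially encoded genes took group means of 5.19% to 12.3% of counts, with more after irradiation in each kind of culture. HCT116 NIR had lower levels of 10 of 10 basal mammary markers than MCF10A NIR. Of the 8 intestinal markers, CDX2 was at 10.0 ± 1.14 CPM, CDHR5 at 6.14 ± 1.06 and EPHB2 at 38.4 ± 3.53 in HCT116 NIR, against no counts, 0.808 ± 0.156 and 18.2 ± 1.78 in MCF10A NIR. The other 5 were below 1 CPM in both lines, CDX1 without a count in either and LGALS4 at 0.0676 ± 0.0729 in HCT116 NIR and 0.157 ± 0.139 in MCF10A NIR. The mixed libraries went against their description. From 141 MCF10A-specific genes, 153 HCT116-specific genes in NIR and 139 in IR libraries, the MCF10A part of their RNA was estimated at 0.501%, 0.437% and 0.399% in the NIR replicates. It was 1.24%, 1.17% and 1.27% in the IR replicates. Fewer cells of a line, less RNA per cell and lower levels of the line-specific genes in mixed culture cannot be told apart in these bulk samples. Results from the mixed libraries are given after those of the single lines.

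**Figure D1:**
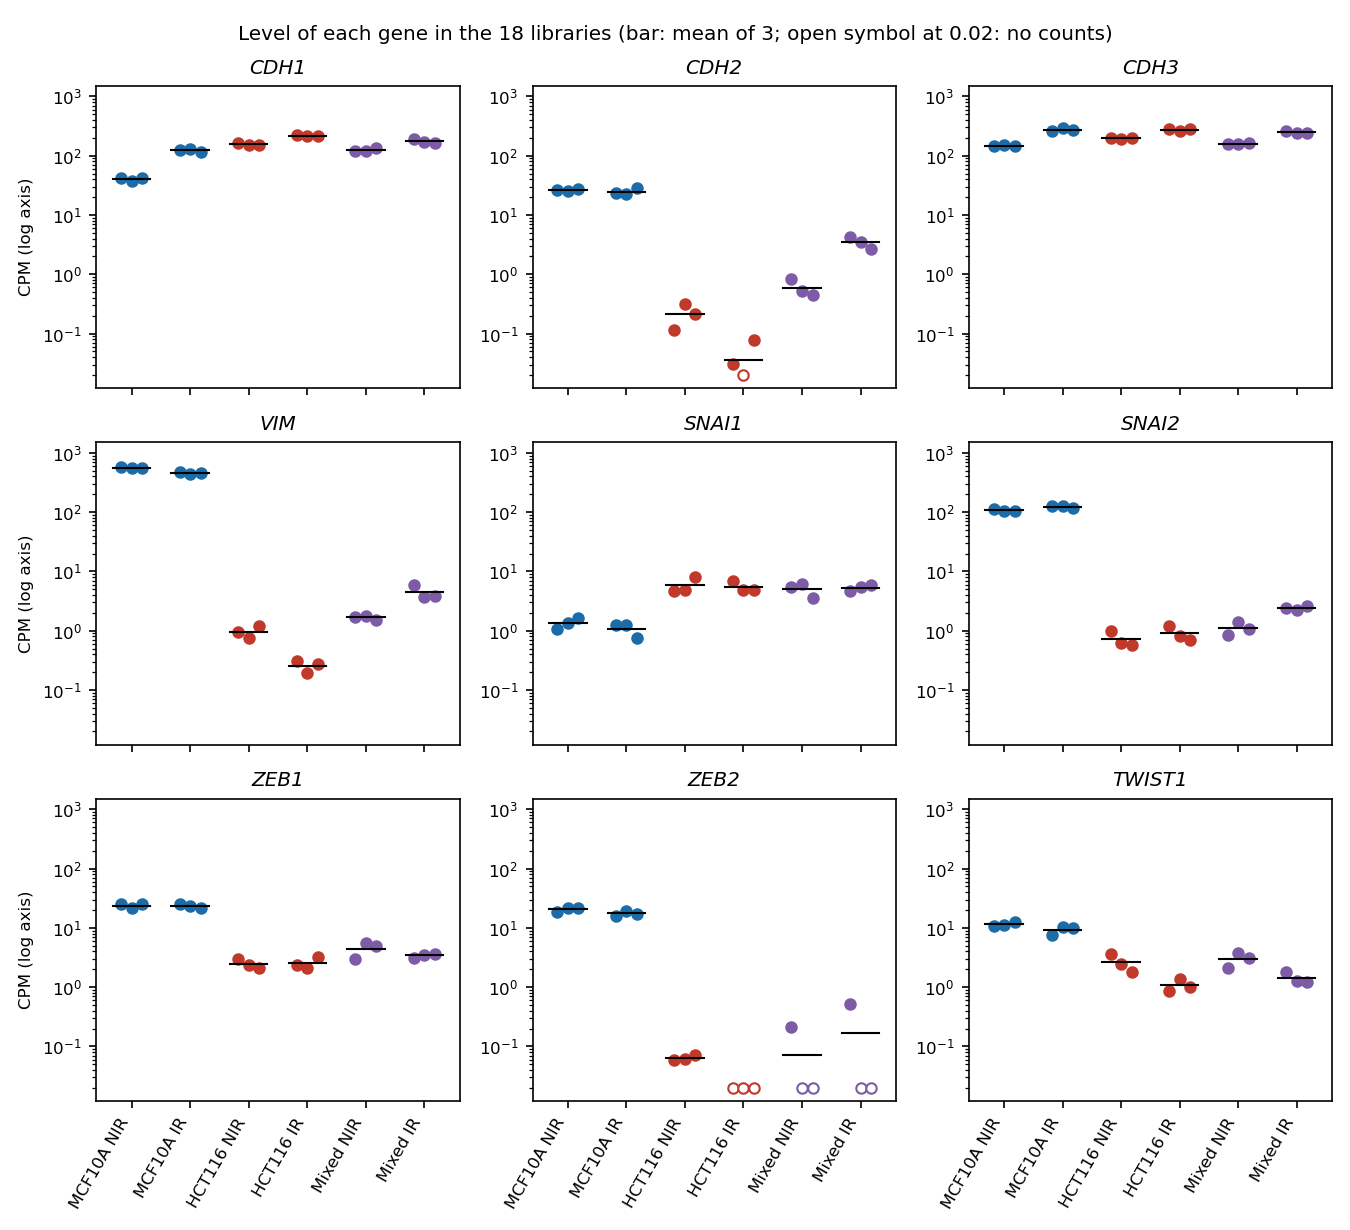
Level of each of the 9 genes in the 18 libraries, in CPM on a log axis, with groups on the horizontal axis. Points are libraries, bars are means of 3, and open symbols placed at 0.02 had no counts. VIM lies between 446 and 573 CPM in the 6 MCF10A libraries and at or below 5.87 CPM in all others, while CDH3 stays between 144 and 291 CPM in all 18.

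Without irradiation, the lines differed in all 9 genes. HCT116 was higher in CDH1, CDH3 and SNAI1 and lower in CDH2, VIM, SNAI2, ZEB1, ZEB2 and TWIST1. The libraries of the lines did not overlap for any of them. The call rule (edgeR's quasi-likelihood test, adjusted p under 0.05) was met by 74.8% of the 16568 genes tested in this contrast, 38.7% higher and 36.1% lower in HCT116, so a call alone is common here and the sizes carry more information. The median log2 fold change of the 9 genes was -3.46, against 0.049 over all genes.

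CDH1 (chr16:68737225-68835548, plus strand, GENCODE v29 on GRCh38) was at 41.8, 36.9 and 42.7 CPM in the MCF10A NIR libraries and at 162, 149 and 153 CPM in HCT116 NIR. The HCT116 libraries were all higher, with a log2 fold change of 1.74 (SE 0.065, adjusted p = 5.7e-14), a 3.34-fold difference. CDH3 (chr16:68636189-68722616, plus strand) ends 14608 bases before CDH1 begins. It was at 144, 151 and 146 CPM in MCF10A NIR and at 199, 188 and 202 CPM in HCT116 NIR, a smaller difference (log2 fold change 0.22, SE 0.054, adjusted p = 0.0013). Per kilobase of merged exon, CDH3 was the cadherin with the highest level of the 3 in both lines, at 23.6 ± 0.574 CPM per kb in MCF10A NIR and 31.5 ± 1.15 in HCT116 NIR. CDH1 stood at 6.55 ± 0.506 and 25.1 ± 1.12 CPM per kb. CDH2 (chr18:27950966-28177446, minus strand) was at 5.27 ± 0.217 CPM per kb in MCF10A NIR, close to CDH1 in those cells, and at 0.0433 ± 0.0197 in HCT116 NIR. In counts, CDH2 had 880, 891 and 797 in MCF10A NIR and 4, 10 and 6 in HCT116 NIR, and the level was 138-fold lower in HCT116 (log2 fold change -7.11, SE 0.20, adjusted p = 1.4e-15).

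VIM (chr10:17228259-17237593, plus strand) showed the widest fitted gap of the 9 between the lines. The MCF10A NIR libraries held 573, 555 and 561 CPM and the HCT116 NIR libraries 0.955, 0.746 and 1.19 CPM, from 33, 24 and 33 counts. The log2 fold change was -9.40 (SE 0.095, adjusted p = 5.2e-21). Its antisense gene VIM-AS1 overlaps its start and was far lower than VIM in MCF10A NIR, at 1.73 ± 0.288 CPM. Because the strand setting of the counting is not given in the sources used here, reads of overlapping antisense pairs cannot be told apart. The list of 6 fibroblast markers was also higher in sum in MCF10A, at 121 to 133 CPM in NIR libraries against 38.7 to 46.8 CPM in HCT116 NIR. DCN, the proteoglycan decorin, gave 119 ± 6.67 CPM of the MCF10A sum and had no counts in HCT116 NIR. COL1A1 went the other way and made up most of the HCT116 sum, at 42.2 ± 3.78 CPM against 6.52 ± 0.740 in MCF10A NIR (log2 fold change 2.50, SE 0.11, adjusted p = 5.9e-13). COL3A1 had no counts in MCF10A NIR and was at 0.255 ± 0.295 CPM in HCT116 NIR, and COL1A2, PDGFRA and LUM were below 1 CPM in both lines. Their part in the VIM difference was not tested.

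The related SNAI factors went in opposite directions. SNAI2 (Slug, a repressor also tied to basal mammary cells; chr8:48917604-48921740, minus strand) was at 114, 104 and 105 CPM in MCF10A NIR and 0.984, 0.622 and 0.579 CPM in HCT116 NIR (log2 fold change -7.38, SE 0.12, adjusted p = 7.7e-19). SNAI1 (Snail; chr20:49982999-49988886, plus strand) was low in both lines and higher in HCT116. It had 36, 48 and 48 counts in MCF10A NIR and 160, 156 and 225 in HCT116 NIR (1.35 ± 0.290 against 5.87 ± 1.97 CPM, log2 fold change 1.92, SE 0.28, adjusted p = 7.3e-06). Per kilobase, SNAI2 in MCF10A NIR (31.8 ± 1.72 CPM per kb) was the highest of the 5 transcription factors in any NIR group.

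ZEB1 (chr10:31318495-31529814, plus strand) was at 24.8, 21.6 and 24.9 CPM in MCF10A NIR and at 2.95, 2.33 and 2.10 CPM in HCT116 NIR, 11.0-fold lower (log2 fold change -3.46, SE 0.14, adjusted p = 2.6e-13). The antisense gene ZEB1-AS1, which overlaps its start, was at 5.57 ± 0.279 CPM in HCT116 NIR, above ZEB1 itself, and at 4.63 ± 0.880 CPM in MCF10A NIR. ZEB2 (chr2:144364364-144524583, minus strand) had 635, 767 and 622 counts in MCF10A NIR and 2 counts in each HCT116 NIR library. The ratio of the summed counts was 322 (95% exact interval 148 to 879, or 110 to 1565 with counts halved, counting error only). ZEB2-AS1 had no counts in any library. TWIST1 (chr7:19020991-19117672, minus strand) was at 10.9, 11.3 and 12.3 CPM in MCF10A NIR and at 3.62, 2.49 and 1.77 CPM in HCT116 NIR (log2 fold change -2.31, SE 0.20, adjusted p = 1.0e-08), the smallest gap among the 6 genes that were lower.

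After irradiation, 9 of 9 genes again met the call rule between the lines, against 74.9% of all 16932 genes (38.1% higher, 36.8% lower in HCT116). CDH1 and SNAI1 were higher in HCT116 IR than in MCF10A IR and the other 7 were lower. The CDH1 difference was smaller than without irradiation, with a log2 fold change of 0.58 (SE 0.052, adjusted p = 1.7e-10); the responses are compared directly further on. For CDH3, the CPM of the lines overlapped (263, 291 and 275 in MCF10A IR, 279, 266 and 278 in HCT116 IR). Its fitted log2 fold change of -0.24 (SE 0.049, adjusted p = 9.2e-05) fell to -0.01 (adjusted p = 0.851) with library size as the only scaling and to -0.058 (adjusted p = 0.281) with upper-quartile factors. These scalings also raised the median log2 fold change of all genes from 0.037 to 0.27 and 0.22. In NIR they raised it from 0.049 to 0.25 each, and the share of called genes that were higher in HCT116 went from 51.8% to 62.2% and 62.4% in NIR and from 50.9% to 62.4% and 60.2% in IR. No direction among the 9 genes changed under any scaling in either contrast. VIM stood at 475, 446 and 456 CPM in MCF10A IR and at 0.305, 0.196 and 0.272 in HCT116 IR, from 10, 8 and 7 counts. ZEB2 had 439, 528 and 575 counts in MCF10A IR and none in HCT116 IR, at least 576-fold higher in MCF10A, or 288-fold with counts halved. The floor for this bound is 3 counts over the 3 libraries. CDH2 had 639, 623 and 957 counts in MCF10A IR and 1, 0 and 2 in HCT116 IR, a ratio of 829 (283 to 4025), or 622 (172 to 5146) with counts halved.

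In MCF10A, irradiation raised CDH1 and CDH3 and lowered VIM. CDH1 went from 36.9 to 42.7 CPM in NIR to 123, 129 and 116 CPM in IR, with no overlap (log2 fold change 1.58, SE 0.060, adjusted p = 1.9e-18). CDH3 went from 144 to 151 CPM to 263, 291 and 275 CPM (log2 fold change 0.89, SE 0.046, adjusted p = 1.7e-15). VIM fell from 573, 555 and 561 to 475, 446 and 456 CPM, also without overlap (log2 fold change -0.32, SE 0.038, adjusted p = 5.3e-08). Of the 9 genes, 6 met the call rule, 3 higher and 3 lower, against 55.4% of 15154 genes (26.2% higher, 29.2% lower), so the share called was near that of all genes. Of all genes called, 47.4% were higher, or 57.5% with upper-quartile factors. The other 3 calls were small and fragile. SNAI2 rose by 0.17 (SE 0.052, adjusted p = 0.0062) and lost its call without MCF10A IR replicate 2 (0.13, adjusted p = 0.065). The call was also lost with all 18 libraries in the fit (0.17, adjusted p = 0.099). ZEB2, at 18.7, 21.6 and 21.2 CPM in NIR and 16.1, 19.3 and 16.9 in IR, overlapped between the groups. Its log2 fold change of -0.26 (SE 0.10, adjusted p = 0.031) lost its call without NIR replicate 2 or 3 or IR replicate 1 or 3 (-0.21, -0.23, -0.20 and -0.24, adjusted p from 0.089 to 0.135). TWIST1, at 7.42, 10.4 and 9.97 CPM in IR, had a log2 fold change of -0.33 (SE 0.13, adjusted p = 0.036). It lost its call without NIR replicate 2 or 3 or IR replicate 1 (-0.33, -0.28 and -0.19, adjusted p of 0.058, 0.115 and 0.240) and under DESeq2 (-0.31, adjusted p = 0.059). The TWIST1 call was also lost with upper-quartile factors (-0.24, adjusted p = 0.120) and with all 18 libraries (-0.34, adjusted p = 0.207). CDH2 (26.1 ± 1.07 and 24.8 ± 2.93 CPM), ZEB1 (23.8 ± 1.91 and 23.3 ± 1.90) and SNAI1 (1.35 ± 0.290 and 1.08 ± 0.277) did not meet the call rule and their libraries overlapped. ZEB1's fitted value was -0.049 and turned to 0.037 with upper-quartile factors.

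In HCT116, CDH1 and CDH3 also rose. CDH1 went from 162, 149 and 153 CPM to 222, 213 and 213 CPM (log2 fold change 0.49, SE 0.058, adjusted p = 2.2e-07), and CDH3 from 199, 188 and 202 to 279, 266 and 278 CPM (0.49, SE 0.057, adjusted p = 1.4e-07). Both genes were higher in every IR library than in any NIR library. TWIST1 fell from 3.62, 2.49 and 1.77 CPM to 0.853, 1.37 and 1.01 CPM (log2 fold change -1.27, SE 0.33, adjusted p = 0.0026). VIM fell as well, from 90 counts in all to 25 (log2 fold change -1.89, SE 0.53, adjusted p = 0.0046), at levels of 0.965 ± 0.225 and 0.258 ± 0.0558 CPM. With 4 of 7 tested genes called, 2 higher and 2 lower, the share stood beside 52.5% of 16857 genes (25.3% higher, 27.2% lower). SNAI1 (5.87 ± 1.97 and 5.48 ± 1.16 CPM), SNAI2 (0.728 ± 0.222 and 0.909 ± 0.274) and ZEB1 (2.46 ± 0.440 and 2.56 ± 0.589) overlapped between the groups and were not called. CDH2 and ZEB2 were below the expression filter. CDH2 had 20 counts in NIR and 3 in IR libraries, a ratio of 7.02 (2.08 to 36.9), or 5.27 (1.12 to 49.4) with counts halved.

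An interaction term, fitted over the 12 single-line libraries with shared scaling, tested whether the lines responded differently. It met the call rule for 6 of the 9 genes, all with a lower value in HCT116, against 37.3% of 18179 genes (15.4% higher, 21.9% lower). The median over all genes was -0.10 and 41.3% of called genes were higher, but this balance depended on the setting. The values were -0.014 and 51.8% with all 18 libraries, -0.056 and 51.9% with no filter, and -0.058 and 46.7% with library size only. Without MCF10A IR replicate 1, 2 or 3 the median was 0.0055, 0.0081 and 0.0069 and the share higher 52.8%, 53.3% and 53.9%, and without HCT116 IR replicate 2 they were -0.012 and 53.2%. CDH1 had the best supported difference: its response was 1.58 in MCF10A and 0.49 in HCT116, a difference of -1.17 (SE 0.084, adjusted p = 4.3e-11). For CDH3 the difference was -0.48 (SE 0.072, adjusted p = 8.5e-06). Both cadherins thus rose in both lines and rose more in MCF10A. VIM fell in both lines and fell further in HCT116 (-1.66, SE 0.26, adjusted p = 1.1e-05), where the response rests on 25 counts after irradiation. TWIST1 had a difference of -1.01 (SE 0.31, adjusted p = 0.012), which lost its call without MCF10A IR replicate 2 or 3 or HCT116 NIR replicate 1 (-0.81, -0.85 and -0.71, adjusted p of 0.061, 0.055 and 0.075). CDH2 (-2.63, SE 0.73, adjusted p = 0.0056) and ZEB2 (-3.82, SE 1.28, adjusted p = 0.021) rest on 3 and 0 counts in HCT116 IR. Both calls were lost without HCT116 IR replicate 2 (-1.83, adjusted p = 0.061, and -3.70, adjusted p = 0.072). ZEB2 also lost its call with counts halved (-2.93, adjusted p = 0.102) and with all 18 libraries in the fit (-3.8, adjusted p = 0.212). For SNAI1, SNAI2 and ZEB1 the differences were 0.18 (SE 0.40), 0.063 (SE 0.25) and -0.0026 (SE 0.22), and none met the call rule.

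**Figure D2:**
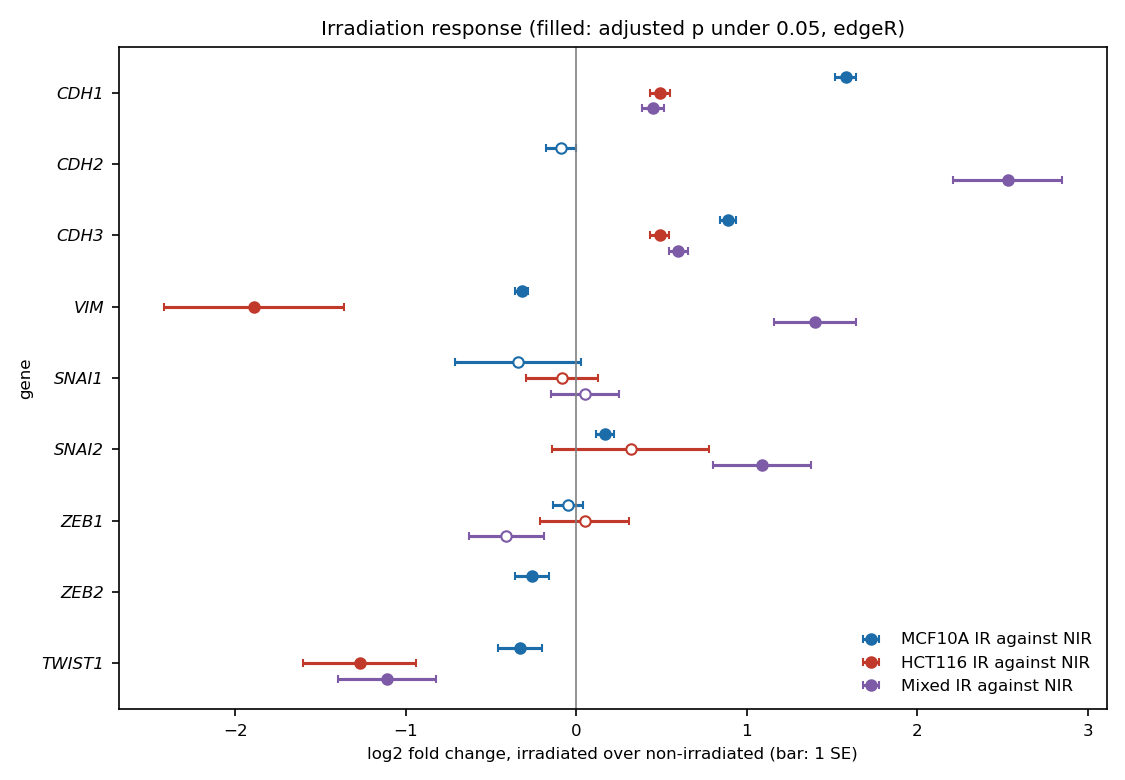
Log2 fold change of each gene after 10 Gy, irradiated over non-irradiated, in MCF10A, HCT116 and mixed cultures, with bars of 1 SE; filled points met an adjusted p under 0.05 in edgeR, and genes below the expression filter have no point. CDH1 and CDH3 lie above 0 in all 3 cultures, and VIM lies below 0 in both single lines and at 1.40 in the mixed cultures.

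In the mixed cultures, 2 of 8 tested genes differed from HCT116 without irradiation and 5 of 8 after it, with the widest gap in CDH2 after irradiation. Without irradiation, CDH1 was at 122, 122 and 136 CPM and CDH3 at 160, 158 and 161 CPM, both below every HCT116 NIR library (log2 fold changes -0.27, SE 0.065, adjusted p = 0.032, and -0.28, SE 0.059, adjusted p = 0.014). These 2 of 8 tested genes were called, none higher, against 2.04% of 16455 genes (0.887% higher, 1.15% lower). CDH2 (0.596 ± 0.200 against 0.215 ± 0.0975 CPM, adjusted p = 0.242) and VIM (1.67 ± 0.123 against 0.965 ± 0.225 CPM, adjusted p = 0.270) lay above HCT116 NIR in all 3 libraries without meeting the call rule. They met it with all 18 libraries in the fit (adjusted p = 0.036 and 0.021), where 63.8% of all called genes were higher, against 43.6% here. Leaving out a library changed the CDH1 and CDH3 calls. CDH1 lost its call without HCT116 NIR replicate 1, 2 or 3 or Mixed NIR replicate 1 or 2 (-0.25, -0.30, -0.27, -0.24 and -0.25, adjusted p from 0.085 to 0.199). CDH3 lost it without HCT116 NIR replicate 3 or Mixed NIR replicate 1 (-0.25 and -0.28, adjusted p of 0.067 and 0.076). ZEB1 was at 2.97, 5.45 and 4.84 CPM, above all HCT116 NIR libraries (log2 fold change 0.86, SE 0.24, adjusted p = 0.077). It met the call rule under DESeq2 (adjusted p = 0.038), with the replicate block (0.83, adjusted p = 0.045) and without Mixed NIR replicate 1 (1.08, adjusted p = 0.032). ZEB1 also met it with no filter (0.87, adjusted p = 0.0087) and with all 18 libraries in the fit (0.88, adjusted p = 0.0049).

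After irradiation, 5 of 8 genes differed between mixed and HCT116 cultures, 3 higher and 2 lower, against 8.56% of 17137 genes (5.08% higher, 3.48% lower). CDH2 had 150, 132 and 95 counts in the mixed IR libraries (4.25, 3.53 and 2.62 CPM) and 1, 0 and 2 in HCT116 IR. The ratio of the sums was 115 (38.9 to 559), and 85.8 (23.4 to 714) with counts halved (edgeR adjusted p = 1.6e-10). VIM was at 5.87, 3.69 and 3.86 CPM against 0.258 ± 0.0558 in HCT116 IR (log2 fold change 4.11, SE 0.33, adjusted p = 1.9e-10). SNAI2 was at 2.44, 2.19 and 2.59 CPM against 0.909 ± 0.274 (1.39, SE 0.31, adjusted p = 0.0041). CDH1 was lower in the mixed libraries, at 192, 173 and 165 CPM (-0.30, SE 0.057, adjusted p = 7.3e-04). The CDH3 call (-0.16, SE 0.050, adjusted p = 0.043) was lost without any one of HCT116 IR replicates 1, 2 and 3 and Mixed IR replicates 2 and 3 (-0.15, -0.18, -0.16, -0.13 and -0.15, adjusted p from 0.051 to 0.234). ZEB2 had 18 counts in Mixed IR replicate 1 and none in the other 2. SNAI1, ZEB1 and TWIST1 were not called and overlapped between the groups.

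Within the mixed cultures, irradiation raised CDH1 (log2 fold change 0.45, SE 0.067, adjusted p = 8.1e-06), CDH3 (0.60, SE 0.055, adjusted p = 9.3e-09) and SNAI2 (1.09, SE 0.29, adjusted p = 0.0040). It lowered TWIST1 from 2.08, 3.81 and 3.14 CPM to 1.81, 1.26 and 1.21 CPM (-1.11, SE 0.29, adjusted p = 0.0028). CDH2 rose from 0.823, 0.519 and 0.445 CPM to 4.25, 3.53 and 2.62 CPM (2.53, SE 0.32, adjusted p = 1.0e-06) and VIM from 1.72, 1.76 and 1.53 CPM to 5.87, 3.69 and 3.86 CPM (1.40, SE 0.24, adjusted p = 4.8e-05). In all, 5 of 8 genes were higher and 1 was lower, against 49.4% of 16906 genes called (24.0% higher, 25.4% lower). ZEB1 (-0.41, SE 0.22, adjusted p = 0.128) met the call rule only without Mixed NIR replicate 1 (-0.63, adjusted p = 0.013), and SNAI1 was not called. Against the HCT116 response, CDH2 (5.19, SE 0.88, adjusted p = 0.0020) and VIM (3.31, SE 0.46, adjusted p = 2.1e-04) had higher responses in the mixed cultures: both rose there, while in HCT116 VIM fell and CDH2 went from 20 counts to 3, on which its value rests. These 2 of 8 genes stood beside 0.83% of 18072 genes (0.681% higher, 0.149% lower). The estimated MCF10A RNA share rose between the same libraries, from at most 0.501% to at least 1.17%, and the 10 basal mammary markers summed to 319 to 351 CPM in mixed NIR and 557 to 629 CPM in mixed IR libraries. All 10 of these markers were called higher in mixed IR than in mixed NIR libraries (median log2 fold change 1.71). HCT116 alone showed a rise as well: 6 of 8 tested markers were higher and none lower after irradiation (median 2.23), with sums of 245 to 275 CPM in NIR and 309.6 to 347 CPM in IR.

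To set that share beside each gene, the level in each mixed library was compared with a weighted sum, the MCF10A share times the MCF10A mean plus the remaining share times the HCT116 mean of the same treatment. In the IR libraries SNAI2 matched the sum, with a ratio of 0.999 ± 0.0587, and SNAI1 (0.980 ± 0.119), VIM (0.759 ± 0.194) and CDH1 (0.823 ± 0.0655) were at or below it. In the NIR libraries the ratios were 0.917 ± 0.239 for SNAI2, 0.861 ± 0.231 for SNAI1, 0.482 ± 0.0301 for VIM and 0.821 ± 0.0545 for CDH1. ZEB1 was above the sum in every library, 1.16, 2.13 and 1.90 times in NIR and 1.11, 1.26 and 1.27 times in IR, and TWIST1 in the IR libraries (1.54, 1.07 and 1.03 times). CDH2 was also above it in every library: 12.4, 10.9 and 7.51 times the sum in IR (10.2 ± 2.48) and 2.39, 1.58 and 1.40 times in NIR. The 141 MCF10A-specific genes had a median ratio of 0.731 in IR, a 95th percentile of 3.66 and a maximum of 13.7, and of 0.629, 3.93 and 27.3 in NIR, so CDH2 lay between the 95th percentile and the maximum in IR and between the median and the 95th percentile in NIR. With shares taken from genes above 50 CPM, the CDH2 ratio was 11.7 in IR and 1.95 in NIR. Among the fibroblast markers, whose 6-gene sum was 34.5 to 42.9 CPM in mixed IR and 28.7 to 31.9 CPM in HCT116 IR, LUM was at 0.774 ± 0.291 CPM in mixed IR and had no counts in HCT116 IR, and COL1A2 and PDGFRA had none in either. Against the weighted sums in IR, LUM was at 70.3 times a sum of 0.011 CPM, COL1A1 at 1.21 times and DCN, at 1.73 ± 0.367 CPM, at 0.588 times. Of the related lists, CLDN1 was at 4.66 times its sum, TCF4 at 3.71 and FN1, which encodes fibronectin, at 3.18. Listed genes also lay far below their sums in IR. Of the basal mammary markers, KRT5 was at 0.0765 times its sum, KRT14 at 0.249 and KRT6A at 0.385, while KRT17 was at 1.01 and DSG3 at 1.63. LUM, CLDN1, TCF4 and these basal mammary markers were chosen here after their values were seen. The part of these genes and of the RNA share in the CDH2 level was not tested, and the counts do not show which line made the CDH2 RNA.

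**Figure D3:**
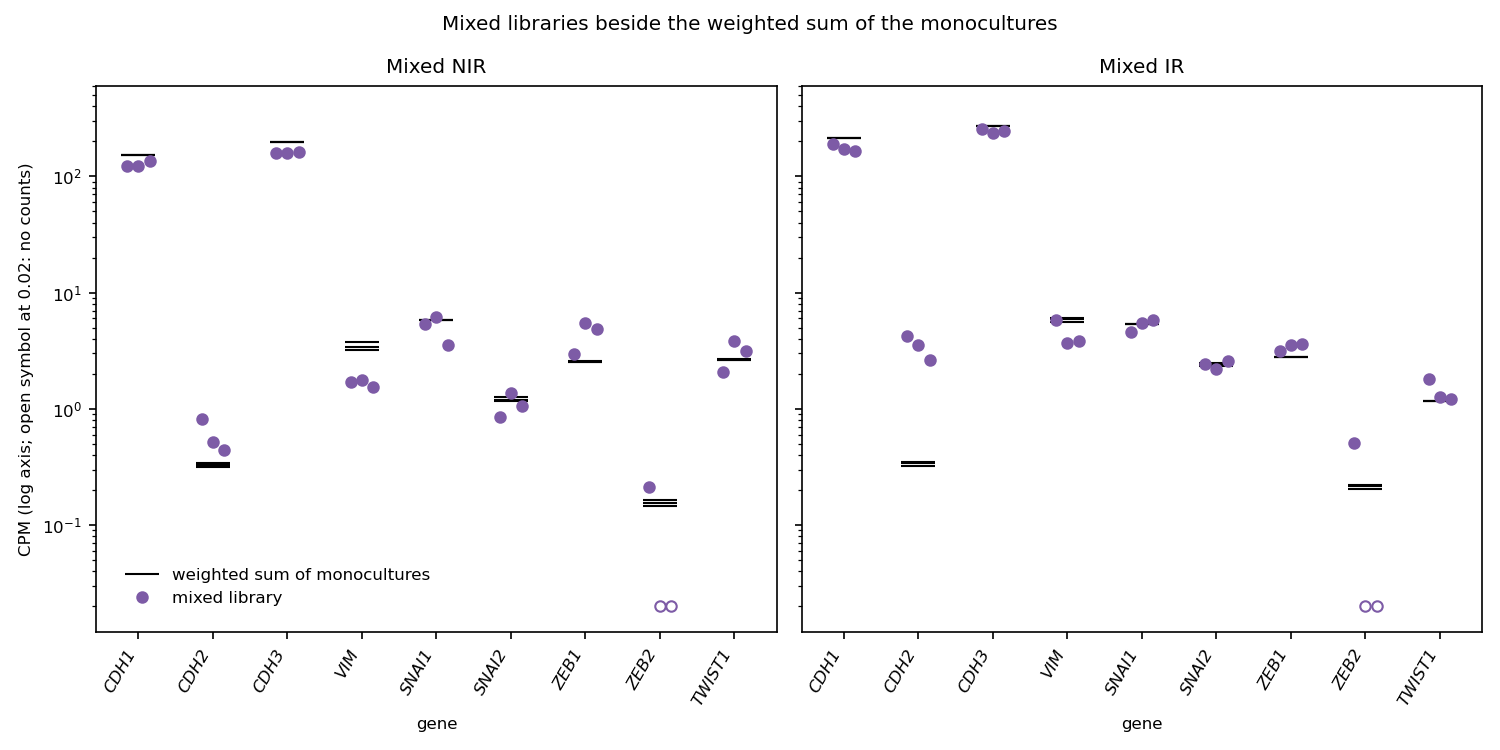
CPM of each gene in the mixed libraries (points, log axis) beside the weighted sum of the single-line means (black bars), for NIR on the left and IR on the right. Open symbols placed at 0.02 had no counts. CDH2 in IR is the gene with points furthest above its bars, at 2.62 to 4.25 CPM against sums of 0.324 to 0.349 CPM.

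Across the 6 groups, the order of levels differed between the genes. CDH2, VIM, SNAI2, ZEB1, ZEB2 and TWIST1 were highest in the MCF10A groups, with a gap to all other groups. CDH1 was highest in HCT116 IR, followed by Mixed IR, HCT116 NIR, Mixed NIR, MCF10A IR and MCF10A NIR, and only Mixed NIR and MCF10A IR overlapped among neighbours. CDH3 followed treatment more than line, from MCF10A IR and HCT116 IR, which overlapped, through Mixed IR, HCT116 NIR and Mixed NIR to MCF10A NIR. SNAI1 was higher in the 4 groups with HCT116 cells than in MCF10A, and neighbours among those 4 groups overlapped. The Pearson correlation of log2(CPM + 1) over 18 libraries was 0.98 for VIM with CDH2 and 0.99 for VIM with ZEB2 and with SNAI2, while VIM with SNAI1 gave -0.94 and VIM with CDH1 -0.76. These libraries share line and treatment, so the values describe the 6 groups rather than independent samples.

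Genes with the most similar pattern, by the same correlation among genes of at least 10 CPM in some group, were FBXO2 (0.986) and JUP (0.980) for CDH1. They were COL4A1 (0.992) and FLRT2 (0.991) for CDH2 and UBE2H (0.975) and PSAP (0.971) for CDH3. For VIM they were TRPS1 and ANPEP (both 0.996), for SNAI2 EVC (0.999) and ROBO1 (0.998), and for SNAI1 FCHO1 (0.967) and TSPAN15 (0.966). ZEB1 was closest to RAP1GDS1 (0.990) and CHD9 (0.986), ZEB2 to DZIP1 and IRX2 (both 0.998), and TWIST1 to IARS2 (0.985) and PIGC (0.983). Such likeness was common for line-specific genes: 885 of 10913 genes passed 0.95 with ZEB2 and 771 with VIM, but 6 with CDH3 and 36 with CDH1. JUP, the catenin plakoglobin that binds CDH1 at junctions, was at 108 ± 1.17 CPM in MCF10A NIR, 203 ± 3.58 in MCF10A IR and 279 ± 13.6 in HCT116 NIR.

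Of 12 catenins and nectins, the cytoplasmic and membrane partners of junctions, 5 were higher and 4 lower in HCT116 NIR cultures than in MCF10A (median log2 fold change 0.041). This share is close to the 74.8% called over all genes, of which 38.7% were higher and 36.1% lower. With library size only or upper-quartile factors these counts were 7 and 2. ARVCF, a catenin of the p120 family, was higher in HCT116 (log2 fold change 3.02, SE 0.13, adjusted p = 5.6e-13) and NECTIN1 lower (-2.50, SE 0.061, adjusted p = 1.5e-16). Among 11 other cadherins, 7 could be tested, 3 higher and 4 lower. CDH13, a cadherin anchored by lipid, was at 75.9 ± 1.38 CPM in MCF10A NIR and was not counted in HCT116 NIR. By the floor of 3 counts it was at least 2389-fold higher in MCF10A. CDH4 (R-cadherin) was 27.5-fold lower in HCT116 (log2 fold change -4.78, SE 0.13, adjusted p = 8.9e-16). CDH24 went the other way (log2 fold change 1.93, SE 0.15, adjusted p = 1.4e-09).

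Of 22 epithelial junction and splicing genes, 15 were higher and 5 lower in HCT116 NIR, with a median log2 fold change of 3.05 against 0.049 over all genes. As over the lists that follow, these counts stand beside 74.8% called of all genes, 38.7% higher and 36.1% lower. CLDN4, a tight-junction claudin, was at 165 ± 10.5 CPM in HCT116 NIR and 0.991 ± 0.326 in MCF10A NIR (log2 fold change 7.14, SE 0.13, adjusted p = 1.8e-18). GRHL2, a transcription factor that sustains epithelial genes, was at 41.0 ± 0.154 CPM in HCT116 NIR and had no counts in MCF10A NIR, at least 1349-fold higher in HCT116. RAB25, an epithelial trafficking GTPase, had 4233 counts against 2, a ratio of 2216 (613 to 18301). CLDN1, another claudin, went the other way, at 0.504 ± 0.210 CPM in HCT116 NIR and 16.7 ± 1.02 in MCF10A NIR. Of 18 genes typical of mesenchymal cells, 17 were tested, 4 higher and 11 lower in HCT116 NIR (median -1.21). With library size only the counts were 5 and 9. WNT5A and FAP stood at 69.3 ± 1.92 and 50.6 ± 2.23 CPM in MCF10A NIR and were without counts in HCT116 NIR. The levels in MCF10A were at least 2180.3-fold and 1588-fold higher. LOX, a collagen cross-linking enzyme, was 32.2-fold lower in HCT116 (log2 fold change -5.01, SE 0.14, adjusted p = 8.1e-16). Of 13 other EMT transcription factors, 6 were higher and 5 lower among 11 tested (median 0.33). TWIST2, the close relative of TWIST1, had 1994 counts in MCF10A NIR and none in HCT116 NIR, which puts MCF10A at least 635-fold higher. SOX9, SOX4 and FOXC1 went the other way, at 194 ± 19.0, 165 ± 14.9 and 87.5 ± 9.34 CPM in HCT116 NIR. In MCF10A NIR they were at 6.91 ± 0.436, 38.4 ± 1.68 and 25.2 ± 3.69 CPM.

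After irradiation of MCF10A, most tested mesenchymal-type genes rose although VIM fell: 15 of 16 were higher and 1 was lower, with a median log2 fold change of 0.58 against 0.0035 over all genes, of which 26.2% rose and 29.2% fell. FN1 went from 1325 ± 41.1 to 5769 ± 362 CPM (2.10, SE 0.038, adjusted p = 4.8e-25), MYL9, a myosin light chain, rose by 1.88 (SE 0.12, adjusted p = 1.1e-13) and L1CAM, an adhesion molecule, by 1.56 (SE 0.070, adjusted p = 6.7e-17). In the same cells 9 of 17 tested epithelial junction and splicing genes rose and none fell (median 0.31), a share called near the 55.4% over all genes. Among those of at least 10 CPM, the largest change was in the claudin CLDN1, at 16.7 ± 1.02 and 73.2 ± 6.20 CPM (2.12, SE 0.076, adjusted p = 5.8e-19). Of the catenins and nectins, 6 rose and 1 fell, led by NECTIN4 (1.25, SE 0.14, adjusted p = 9.1e-09) and JUP (0.88, SE 0.045, adjusted p = 9.5e-16). Among other EMT factors 3 rose and 6 fell of 11, with SOX9 at 1.39 (SE 0.11, adjusted p = 3.3e-11) and TWIST2 at -0.72 (SE 0.11, adjusted p = 1.5e-06). The basal mammary list (8 of 10 higher, none lower) and 2 of 4 tested fibroblast markers (COL1A1 and DCN) rose in the same contrast. Their part in these changes was not tested.

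In HCT116, irradiation raised 10 and lowered 2 of 16 tested mesenchymal-type genes (median 0.42 against 0.0072 over all genes, of which 25.3% rose and 27.2% fell). S100A4, a calcium-binding protein, rose from 39.6 ± 6.10 to 96.1 ± 5.30 CPM (1.29, SE 0.087, adjusted p = 1.8e-11), whereas FN1 fell from 74.8 ± 19.6 to 42.3 ± 2.42 CPM (-0.81, SE 0.11, adjusted p = 2.1e-06). In the same contrast 6 of 8 tested basal mammary markers rose and none fell (median 2.23), and COL1A1, the 1 fibroblast marker tested, fell. Their part in these changes was not tested. The FN1 response differed between the lines by -2.99 (SE 0.14, adjusted p = 2.0e-14). Of 22 epithelial genes 10 rose and 4 fell, and the splicing regulator ESRP1 fell from 295 ± 4.80 to 189.8 ± 5.94 CPM (-0.63, SE 0.056, adjusted p = 2.1e-09). In the mixed cultures 15 of 18 mesenchymal-type genes rose and 1 fell, with S100A4 at 1.44 (SE 0.066, adjusted p = 2.4e-13) and FN1 at 1.26 (SE 0.062, adjusted p = 6.4e-13). Over all genes, 49.4% were called in this contrast, 24.0% higher and 25.4% lower. Of the 22 epithelial genes, 7 rose and 6 fell. With library size only, 10 rose and 4 fell. Across the lists and the 3 irradiation contrasts, genes of both the epithelial and the mesenchymal lists were among those that rose.

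**Figure D4:**
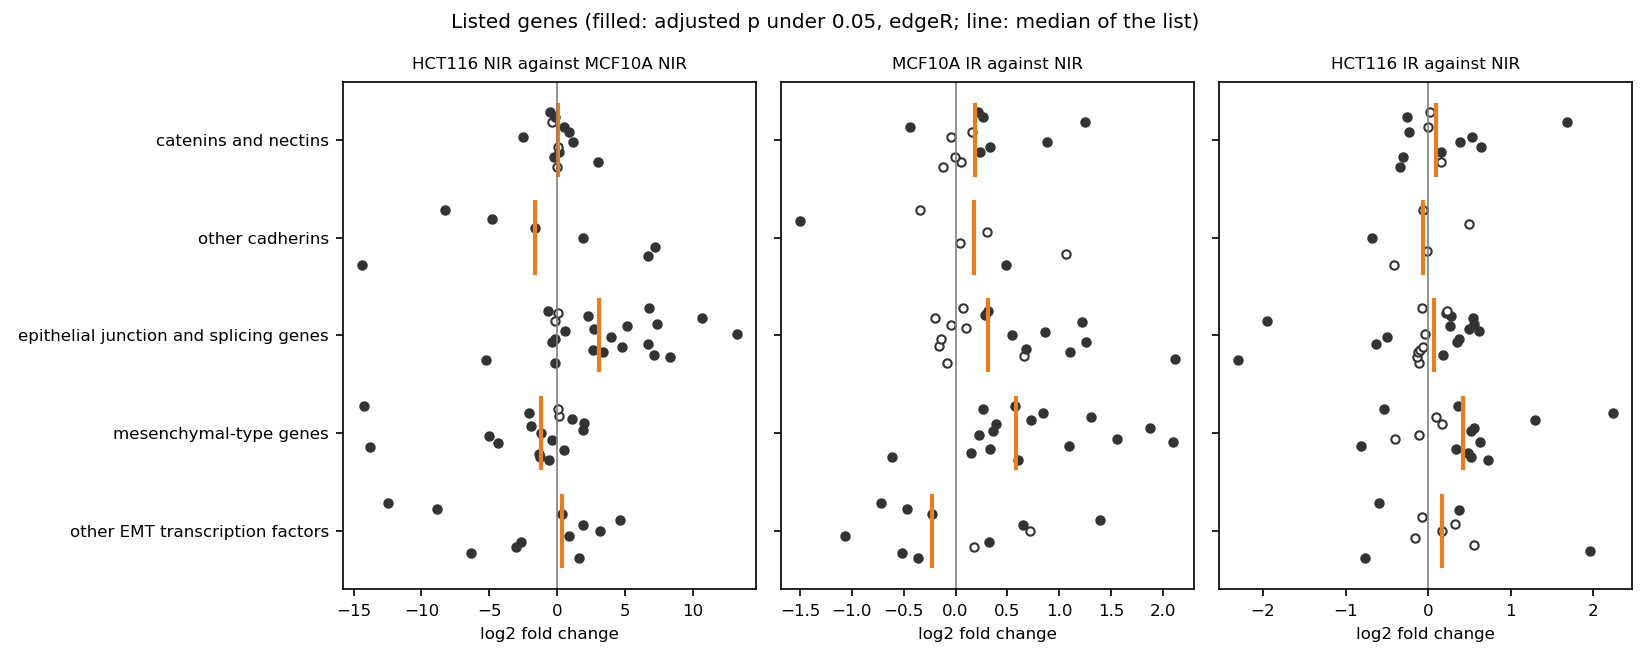
Log2 fold changes of the listed related genes in 3 contrasts: HCT116 NIR over MCF10A NIR, MCF10A IR over NIR and HCT116 IR over NIR. Points are genes, filled where the adjusted p was under 0.05 in edgeR, and the orange line is the median of the list; the scale differs between panels. The epithelial junction list has a median of 3.05 between the lines and 0.31 and 0.068 after irradiation, and the mesenchymal-type list -1.21, 0.58 and 0.42.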

How the data were processed

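The authors deposited raw counts per gene symbol for each of 18 libraries of poly(A) RNA, prepared with a stranded Illumina kit per the labels' protocols. Per the submitters' processing notes, fastp, STAR, featureCounts and GRCh38 were used; versions, annotation and the strand setting of the counting are not given in the sources used here. Totals were 25737818 to 40839835 counts. Of counts from 1 to 10, 68.3% were even, so fits with halved counts were added to the alternatives. Exact intervals and floors (3 counts) cover counting error only. Replicates differed by 4.77 to 14.0 chi-squared per gene, beyond counting error.

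edgeR 4.0.16 (R 4.3.3) was run on all genes of the groups compared: TMM, filterByExpr, quasi-likelihood test, 2-sided, Benjamini-Hochberg over all genes tested. A gene was called at an adjusted p under 0.05, and the SE is the log2 fold change over the root of F. On simulated counts of the MCF10A irradiation contrast, 200 of 200 genes changed by 1 log2 unit were recovered, with 11 false calls. The changed genes were drawn from well-counted ones and all genes had the same fixed dispersion. This check therefore does not cover genes with few counts or smaller changes. DESeq2 1.42.0, other scalings, no filter, all 18 libraries together, a replicate block and leaving out each library were alternatives. MCF10A shares used genes with a mean of at least 20 CPM in a line whose other-line libraries all stayed under 1 CPM. Gene lengths and positions are from GENCODE v29. The 9 genes, the lists and the naming rule were chosen with earlier results of these data known. The rule named, per list and contrast, up to 3 called genes with the largest change, at least 10 CPM and no overlap, from which the text gives some. Marker genes outside it are named as parts of their list. Some genes named as going the other way were chosen outside it, after their values were seen.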

Additional observations from a re-analysis of the deposited data

Results flagged for a closer look

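Irradiation responses that differed between cultures by the interaction test were found for 6 genes between HCT116 and MCF10A and for 2 between mixed and HCT116 cultures. Over all genes tested, 37.3% and 0.83% met the call rule in these contrasts. HCT116 minus MCF10A, the differences in log2 fold change were -1.17 for CDH1, -0.48 for CDH3, -1.66 for VIM and -1.01 for TWIST1. Those of CDH2 (-2.63) and ZEB2 (-3.82) rest on 3 and 0 counts in the HCT116 IR libraries. With a library left out, the TWIST1 call was lost in 3 of 12 fits and the CDH2 and ZEB2 calls in 1 of 12 each. Mixed minus HCT116, the differences were 5.19 for CDH2 and 3.31 for VIM. They rest on 3 and 25 counts in the HCT116 IR libraries. The groups held 3 libraries each, so no check for outlying libraries was made.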

How the results depend on the processing

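Of 1076 values of the 9 genes recomputed under other settings, 996 kept their direction and their side of the threshold, 37 lost a call, 8 gained one and 35 changed sign, 28 of these when a library was left out. All sign changes were in values that were not called. With all 18 libraries in the fit, 3 genes were called in MCF10A IR against NIR in place of 6, and 5 in Mixed NIR against HCT116 NIR in place of 2. Leaving out a library gave 0 to 2 calls in Mixed NIR against HCT116 NIR. ZEB1 turned to 0.037 in MCF10A IR against NIR with upper-quartile factors. Its response difference between the lines turned to 0.024 with DESeq2, 0.045 with library size only, 0.10 without filter and 0.10 with all 18 libraries. CDH1 in the difference of mixed and HCT116 responses turned to 0.00015 with library size only. With a library left out, sign changes gave these ranges. After irradiation, ZEB1 ranged from -0.11 to 0.0066 in MCF10A and from -0.14 to 0.19 in HCT116, and SNAI1 from -0.28 to 0.22 in HCT116 and from -0.16 to 0.24 in mixed cultures. Mixed against HCT116, SNAI1 ranged from -0.39 to 0.11 in NIR and from -0.15 to 0.14 in IR. In the response difference of HCT116 and MCF10A, SNAI1 ranged from -0.012 to 0.50, SNAI2 from -0.20 to 0.35 and ZEB1 from -0.17 to 0.23. In that of mixed and HCT116 cultures, CDH1 ranged from -0.12 to 0.011, SNAI1 from -0.19 to 0.32 and TWIST1 from -0.15 to 0.38. The causes of these sign changes and of the moved counts were not tested. Residuals of libraries with the same replicate number had mean correlations of -0.021 to 0.057 over 15 pairs of groups. Residuals centred within groups of 3 libraries cannot exclude that the numbers pair some samples, and the labels do not say whether they do. With the replicate block, ZEB1 was called in Mixed NIR against HCT116 NIR (0.83), its response difference between the lines was 0.0029, and no other call of the 9 genes changed. Levels under about 1 CPM rest on few counts and limit CDH2, VIM, ZEB2 and SNAI2 in HCT116. Over all genes, 335 were called in Mixed NIR against HCT116 NIR, 576 with DESeq2, 671 without filter, 768 with all 18 libraries, 716 with the replicate block and 145 to 313 without a library. In Mixed IR against HCT116 IR, 1467 were called, 2220 with the replicate block and 866 to 1312 without a library. In the response difference of mixed and HCT116 cultures 150 were called, 327 with DESeq2, 336 without filter and 64 to 197 without a library.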
